A study of Mus musculus with 16 samples.

Results

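The genes of mouse chromosome 10 were described in 4 lines of induced pluripotent stem cells (iPSCs), with 2 lines reprogrammed from kidney proximal tubule cells (PTC11 and PTC12) and 2 from tail tip fibroblasts (TTF1 and TTF4). Members were all rows that the deposited tables place on chromosome 10. These were 1842 of 43984 rows in the histone table and 2621 of 55471 rows in the methylation table, and 1086 gene IDs stood in both. The chromosome was chosen because H3K4me3 and H3K36me3 of line TTF4 are raised there, so that raise is described without a test. CpG methylation and the presence of a peak value in each line were not used in the choice.

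The study asked whether iPSCs keep an epigenetic memory of the cell they came from. Both kinds of donor cell came from littermates carrying SLC34a1-GCE, tdTomato, rtTAROSA (neo-in) and OKMS-250, so all 4 lines share the doxycycline-inducible reprogramming factors. In the proximal tubule cells a tamoxifen-activated Cre recombinase, expressed from the SLC34a1 locus and therefore restricted to that cell type, removed the neo cassette. The fibroblasts do not express that Cre and received it from episomal plasmids instead, so cell of origin and route of Cre cannot be told apart. Reprogramming was started with doxycycline and the lines were then kept without it. Each line was grown from a picked colony, so a line stands for 1 clone. H3K4me3, H3K36me3 and CpG methylation have 1 library per line, whereas both H3K27me3 libraries of PTC origin are named for PTC11. The labels do not tie a line to a mouse.

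H3K4me3 marks the start sites of active and poised genes, and H3K36me3 is laid down over gene bodies by a methyltransferase that travels with elongating RNA polymerase. H3K27me3 is the Polycomb mark of silenced developmental genes. Methylation of CpG dinucleotides at a start site usually goes with a silent promoter, and promoters rich in CpG are mostly unmethylated in pluripotent cells. Mouse chromosome 10 carries genes of many kinds, among them the DNA methylation regulators Tet1 and Dnmt3l, the chromatin factor Hdac2, cell cycle kinases, kidney and muscle lineage factors, and clusters of olfactory and vomeronasal receptors.

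As a check of the cell type label, H3K4me3 values were listed at 9, 9, 9 and 7 of 10 pluripotency markers in PTC11, PTC12, TTF1 and TTF4. They were listed at 2, 6, 6 and 4 of 8 fibroblast markers and at 1, 3, 1 and 1 of 8 proximal tubule markers. Read totals per library are not given in the tables.

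Promoters of 6 members that the results below turn on are shown as RefSeq gives them on build GRCm38.p6, from 250 bases before to 50 bases after the start site, 5′ to 3′ on the gene's strand, with each CG in capitals because CG is the methylated dinucleotide. Vgll2 (TEAD cofactor, chr10:52022252-52022551, plus strand), Anks1b (synaptic scaffold, chr10:90829593-90829892, plus strand) and Tcf21 (kidney and mesenchyme transcription factor, chr10:22820094-22820393, minus strand) had an H3K27me3 value in TTF4. Ccdc170 (a coiled-coil protein, chr10:4482265-4482564, plus strand) and Gpx4 (the peroxidase of membrane lipid peroxides, chr10:80046916-80047215, plus strand) were highly methylated in TTF4 and lacked an H3K4me3 value there. Ube2d1 (ubiquitin-conjugating enzyme, chr10:71285213-71285512, minus strand) had one of the 5 largest H3K4me3 deviations of TTF4.
Vgll2: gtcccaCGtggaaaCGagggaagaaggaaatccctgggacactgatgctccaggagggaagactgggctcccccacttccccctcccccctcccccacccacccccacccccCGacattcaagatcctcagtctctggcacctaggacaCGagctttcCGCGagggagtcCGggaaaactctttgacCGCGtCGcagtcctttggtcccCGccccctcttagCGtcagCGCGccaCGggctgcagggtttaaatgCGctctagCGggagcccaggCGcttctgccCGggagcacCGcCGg
Anks1b: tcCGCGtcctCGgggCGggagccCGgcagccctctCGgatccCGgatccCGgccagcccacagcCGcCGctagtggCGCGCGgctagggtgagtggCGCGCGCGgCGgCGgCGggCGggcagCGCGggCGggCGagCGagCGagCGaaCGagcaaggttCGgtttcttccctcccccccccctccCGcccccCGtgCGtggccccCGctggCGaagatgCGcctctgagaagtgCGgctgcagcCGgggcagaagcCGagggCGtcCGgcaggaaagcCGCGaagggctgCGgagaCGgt
Tcf21: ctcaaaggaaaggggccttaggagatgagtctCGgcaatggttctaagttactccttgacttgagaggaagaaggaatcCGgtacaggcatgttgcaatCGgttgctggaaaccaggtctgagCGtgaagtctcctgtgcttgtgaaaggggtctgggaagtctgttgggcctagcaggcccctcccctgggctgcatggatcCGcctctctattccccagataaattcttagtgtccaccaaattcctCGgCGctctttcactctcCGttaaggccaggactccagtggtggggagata
Ccdc170: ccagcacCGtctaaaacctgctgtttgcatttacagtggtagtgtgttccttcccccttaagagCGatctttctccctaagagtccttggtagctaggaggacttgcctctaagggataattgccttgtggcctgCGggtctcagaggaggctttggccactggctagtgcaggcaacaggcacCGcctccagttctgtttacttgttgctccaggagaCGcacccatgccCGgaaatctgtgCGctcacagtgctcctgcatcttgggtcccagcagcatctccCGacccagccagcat
Gpx4: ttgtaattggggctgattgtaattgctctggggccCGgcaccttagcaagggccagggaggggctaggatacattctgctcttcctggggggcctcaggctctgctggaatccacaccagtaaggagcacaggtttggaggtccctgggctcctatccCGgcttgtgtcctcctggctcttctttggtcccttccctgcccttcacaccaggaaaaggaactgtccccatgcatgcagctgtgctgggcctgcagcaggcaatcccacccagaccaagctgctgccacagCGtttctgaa
Ube2d1: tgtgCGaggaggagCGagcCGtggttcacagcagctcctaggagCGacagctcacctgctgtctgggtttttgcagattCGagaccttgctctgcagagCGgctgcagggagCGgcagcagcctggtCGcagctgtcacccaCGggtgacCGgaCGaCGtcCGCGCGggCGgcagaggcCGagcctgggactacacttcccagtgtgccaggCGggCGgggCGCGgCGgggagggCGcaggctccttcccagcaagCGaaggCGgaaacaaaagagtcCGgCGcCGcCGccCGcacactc
These windows held 21, 45, 8, 8, 3 and 30 CG in that order. Of the 32851 RefSeq promoters of that length, 1.93% held at least 45, 11.7% at least 30, 24.8% at least 21, 48.6% at least 8 and 76.7% at least 3 on 1 strand, which for CG is the count on both. The median was 7 CG over all promoters and 7 over the 1649 promoters of chromosome 10.

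Histone values are RPKM, read counts scaled to the length of the region and the size of the library, with the input already subtracted. H3K4me3 had a value in all 4 lines at 685 chromosome 10 rows, beside 31.2% of all rows of the table. In PTC11 their median H3K4me3 was 3.74 RPKM, in PTC12 5.33, and TTF1 and TTF4 had 5.80 and 4.70. Over the 12747 genes of the other 18 autosomes it was 3.73, 5.34, 5.75 and 3.70. PTC11, PTC12 and TTF1 thus had nearly the same median on chromosome 10 as elsewhere, and TTF4 was higher on chromosome 10.

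H3K36me3 had a value in all 4 lines at 837 chromosome 10 rows, beside 38.7% of all rows. Its median was 1.69 RPKM in PTC11 and 4.13 in PTC12, against 1.25 in TTF1 and 4.91 in TTF4. Over the 15846 genes of the other autosomes it was 1.66, 4.06, 1.21 and 4.05. All 4 lines had a higher median on chromosome 10 than elsewhere, by a small margin in PTC11, PTC12 and TTF1 and by a wider one in TTF4. On chromosome 10 and elsewhere, PTC12 and TTF4 had the high median values and PTC11 and TTF1 the low ones. These medians cover only genes with a peak value in all 4 lines. From read coverage at renal genes, the paper describes the reverse, with more H3K36me3 in PTC11 and TTF1 than in PTC12 and TTF4. Why they differ was not tested.

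To set the lines on 1 scale, the deviation of a gene in a line was its log2(RPKM + 1) minus the median of the 4 lines, and the median deviation over the other autosomes of that line was then subtracted. The median H3K4me3 deviation on chromosome 10 was -0.10 in PTC11 and -0.11 in PTC12, against -0.10 in TTF1 and 0.17 in TTF4. For H3K36me3 it was -0.03, -0.05, -0.03 and 0.17. TTF4 was above the other 3 lines, which lay together. A raised line lifts the median of 4 and so lowers the others: with TTF4 left out, the median H3K4me3 deviation of PTC11 was -0.00. The SD between lines of the same origin was 0.13 for the H3K4me3 deviation and 0.10 for H3K36me3, and TTF4 itself enters it. Against the mean of the other 3 lines, TTF4 stood 0.29 higher for H3K4me3 and 0.20 higher for H3K36me3.

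**Figure D1:**
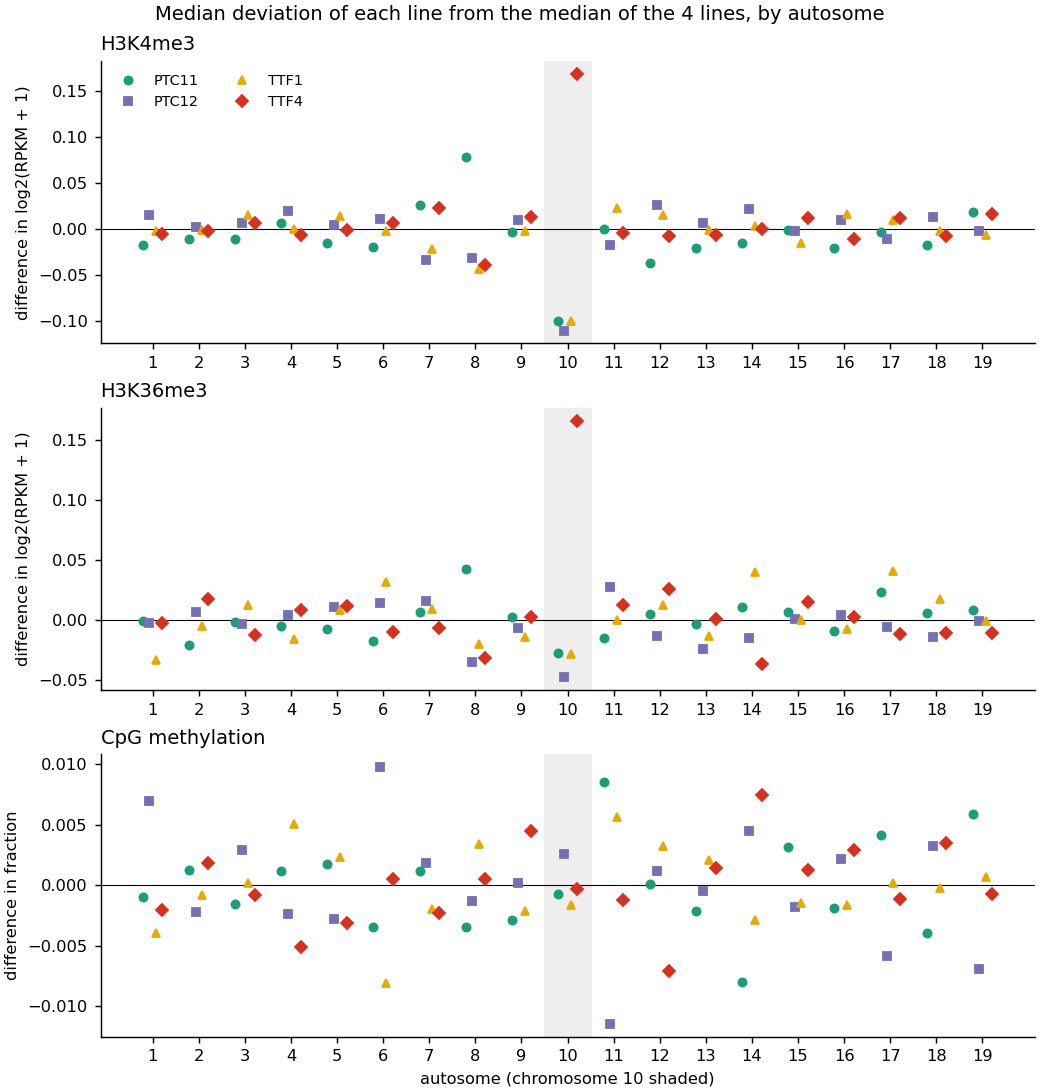
Median deviation of each line from the median of the 4 lines for each autosome, as a difference in log2(RPKM + 1) for the histone marks and in the methylated fraction for CpG methylation. Each symbol is 1 line, with no error bar since a line is 1 library. On chromosome 10 (shaded) TTF4 lies at 0.17 for both histone marks and at -0.000353 for methylation.

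The same held for every pair of lines that includes TTF4. For H3K4me3, the median per-gene difference on chromosome 10 minus that on the other autosomes was 0.28 for TTF4 against PTC11, 0.29 against PTC12 and 0.28 against TTF1. These correspond to 1.21-fold, 1.22-fold and 1.21-fold on the scale of RPKM + 1, and to 1.27, 1.28 and 1.28 as a ratio of RPKM ratios without the added 1. The 3 pairs without TTF4 gave -0.00, 0.01 and -0.00. For H3K36me3 the TTF4 pairs gave 0.18, 0.21 and 0.21 (RPKM ratios of 1.17, 1.19 and 1.18), and the pairs without TTF4 gave -0.03, 0.01 and -0.00. The size of the chromosome 10 difference in TTF4 therefore hardly depended on the line it was set against.

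Among the other 18 autosomes, the H3K4me3 deviation of TTF4 ranged from -0.04 on chromosome 8 to 0.02 on chromosome 7. Its H3K36me3 deviation ranged from -0.04 on chromosome 14 to 0.03 on chromosome 12. No other autosome of TTF4 came near the 0.17 of chromosome 10 for either mark. Shifts of like size were found on the X chromosome, mostly in other lines. There the H3K4me3 deviation was 0.20, -0.17, -0.17 and 0.06 in PTC11, PTC12, TTF1 and TTF4. For H3K36me3 it was 0.14, -0.15, 0.06 and -0.13. RPKM from a ChIP library moves with the number of DNA copies as well as with the mark per copy, and the 2 cannot be told apart here, since the table holds no separate input values.

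By position, the raise was found along the whole chromosome. In the 12 windows of 10 Mb with at least 20 H3K4me3 genes, the median deviation of TTF4 was between 0.11 and 0.19. The 195 such windows on other autosomes lay between -0.14 and 0.08, so all 12 chromosome 10 windows stood above the highest of them. The lowest value was in the window from 50 to 60 Mb and the highest in that from 70 to 80 Mb, with the window from 60 to 70 Mb next to it at 0.19 as well.

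For H3K36me3 the 13 windows with at least 20 genes lay between 0.11 and 0.22. The 223 windows elsewhere were more scattered, from -0.45 to 0.22, and 2 of them were above the lowest chromosome 10 window. Windows with few genes gave less certain values. The H3K4me3 window from 100 to 110 Mb, with 13 genes, had 0.14, and the last window, beyond 130 Mb, had a single H3K4me3 gene at -0.64 and 2 H3K36me3 genes with a median of 0.23.

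**Figure D2:**
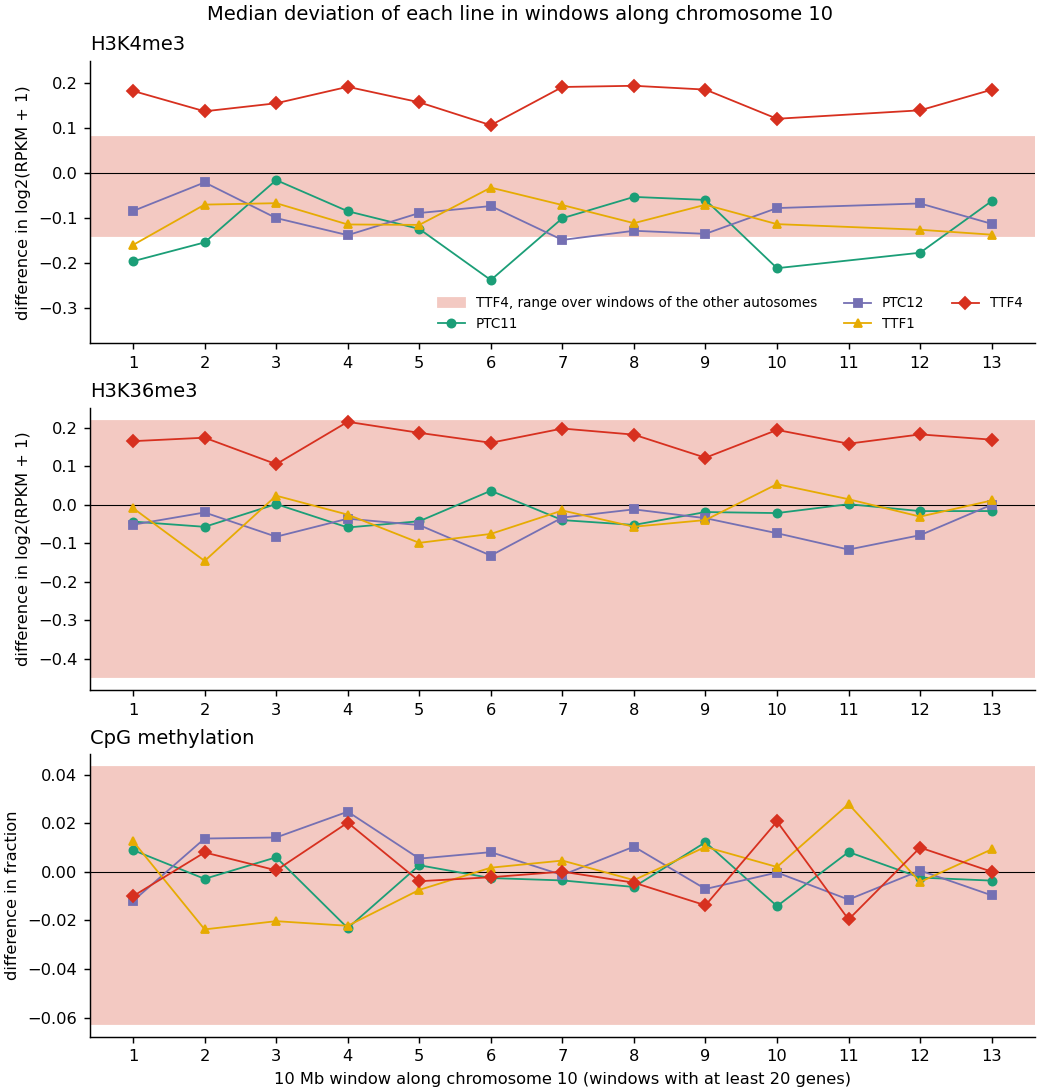
Median deviation of each line in windows of 10 Mb along chromosome 10 (windows with at least 20 genes), in log2(RPKM + 1) for the histone marks and in the methylated fraction for CpG methylation. TTF4 is above the other 3 lines in every plotted window of H3K4me3 and H3K36me3, whereas the 4 lines cross each other for methylation.

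Single genes varied around this shift. TTF4 had an H3K4me3 deviation above 0 at 599 of 685 chromosome 10 genes (87.4%), where 52.1% of all 13709 genes did. For H3K36me3 it was 624 of 837 (74.6%), where 50.8% of all 17039 genes did. A deviation above 0.25 was found at 169 genes (24.7%) for H3K4me3, beside 6.01%, and at 300 genes (35.8%) for H3K36me3, beside 17.2%. In plain RPKM, TTF4 was the highest of the 4 lines for H3K4me3 at 74 chromosome 10 genes (10.8%), beside 2.09% over all genes. For H3K36me3, TTF4 was the highest line at 602 genes (71.9%), beside 48.4% over all genes. It was highest for both marks at 33 of 547 chromosome 10 genes (6.03%), beside 0.904% of all genes. As the choice of the chromosome used these values, nothing is read from the shares. Across the genes, the H3K4me3 and H3K36me3 deviations of TTF4 had a Spearman's rho of -0.064 over 547 genes, which share their libraries.

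The raise differed with the level of the mark. From the lowest to the highest quartile of H3K4me3 level, the deviation of TTF4 was 0.13, 0.16, 0.22 and 0.21. For H3K36me3 the order was the opposite, with 0.26, 0.20, 0.14 and 0.09. Genes on the plus and minus strands had 0.17 and 0.16 for H3K4me3, and 0.17 and 0.16 for H3K36me3. Protein-coding genes had 0.17 for H3K4me3 and 0.16 for H3K36me3, other annotated genes 0.18 and 0.23, and rows without an Ensembl ID 0.13 and 0.12. By CG in the promoter, the H3K4me3 deviation was 0.07 at 9 genes with under 5, 0.14 at 63 genes with 5 to 14, and 0.18 at 384 genes with 15 or more. The H3K36me3 deviation of these classes was 0.08, 0.22 and 0.15. All of these class medians were above 0.

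The 5 named genes with the highest H3K4me3 deviation in TTF4 were SNORD59, Ube2d1, Abca7, Hsf2 and Slc6a15, with start sites at 128085289, 71285262, 79996494, 57486385 and 103367808 on chromosome 10 (mm10). In the order PTC11, PTC12, TTF1 and TTF4, the small nucleolar RNA gene SNORD59 had 2.62, 2.32, 5.21 and 7.53 RPKM, and Ube2d1 had 3.75, 4.64, 5.26 and 7.07. TTF4 was highest at both, and TTF1 was second. Abca7, a lipid transporter, had 4.90, 4.63, 5.16 and 7.13. Hsf2, a heat shock transcription factor, had 2.79, 3.74, 5.41 and 6.32. Slc6a15, a transporter of neutral amino acids, had 3.74, 3.56, 4.35 and 5.55. TTF4 was the highest line at all 5, by less than 1 RPKM over TTF1 at Hsf2 and by more at the others.

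At the other end were Pcdh15, Med23, Tcf3 and Inhbc, with start sites at 73099342, 24869986, 80433647 and 127370544, where TTF4 was the lowest line. The adhesion protein gene Pcdh15 had 3.03, 5.43, 5.52 and 2.33 RPKM, listed with the same values in 2 rows. The Mediator subunit gene Med23 had 6.11, 8.15, 11.8 and 4.31. Tcf3, an E-protein transcription factor of lymphocyte and muscle development, had 4.85, 9.33, 9.95 and 4.15. Inhbc, an inhibin subunit, had 3.17, 2.92, 3.62 and 1.76. The deviation of TTF4 was -0.39, -0.38, -0.37 and -0.33 at these genes. The SD of log2(RPKM + 1) between lines of the same origin, TTF4 included, was larger at each, at 0.59, 0.66, 0.68 and 0.37. The genes were picked as the lowest, so whether the raise passed over single genes was not tested.

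For H3K36me3 the highest deviations of TTF4 were at Coq10a, Rpf2, Zdhhc17, RP24-170A20.3 and Prtn3, with start sites at 128370032, 40246979, 111010066, 39899238 and 79874476. Rpf2, a ribosome assembly factor, had 1.90, 8.11, 1.09 and 13.5 RPKM. Coq10a, a coenzyme Q binding protein, had 1.56, 5.87, 1.67 and 11.3. Zdhhc17, a palmitoyltransferase, had 1.60, 3.28, 1.21 and 8.34. In each, TTF4 was above PTC12, the other line with a high median H3K36me3 value. RP24-170A20.3 had 1.03, 5.32, 0.484 and 8.85, and the neutrophil protease gene Prtn3 had 1.60, 4.86, 1.29 and 9.48. Among named genes with a median of at least 2 RPKM, the lowest deviations were at Snord37, D10Wsu102e, Eef2, Ccdc59 and Neurog3. With PTC11 left out, the deviation was 0 at D10Wsu102e, Eef2, Ccdc59 and Neurog3 and -0.19 at Snord37. Translation elongation factor Eef2 had 5.83, 5.46, 2.88 and 3.77 RPKM. The nucleolar RNA gene Snord37, which starts within it, had 5.83, 7.11, 4.06 and 3.42. D10Wsu102e had 2.73, 3.57, 1.44 and 1.73, and Ccdc59 had 2.62, 4.45, 2.04 and 2.34. Neurog3, the endocrine pancreas factor, had 1.92, 3.58, 1.20 and 2.11. At these 5 genes PTC12 or PTC11, not TTF4, was the highest line.

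**Figure D3:**
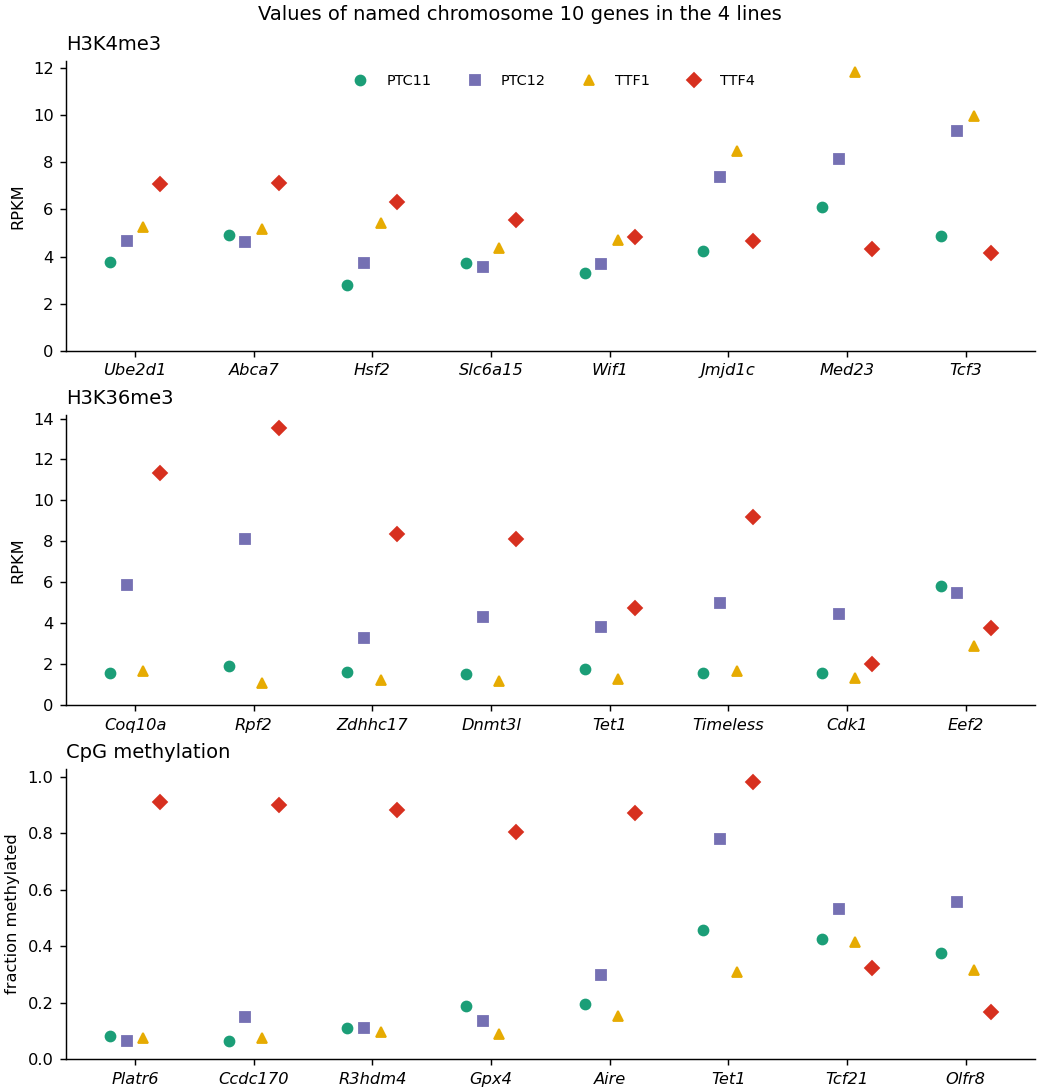
Values of named chromosome 10 genes in the 4 lines, as RPKM for H3K4me3 and H3K36me3 and as the methylated fraction for CpG methylation. Each symbol is 1 line (1 library). TTF4 is the highest line at Ube2d1 (7.07 RPKM) and Rpf2 (13.5 RPKM) and the lowest at Med23 (4.31 RPKM), and Platr6 is at 0.911 methylated in TTF4.

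Grouped by known function, most lists followed the chromosome. The lists are described by counts and medians of the deviation of TTF4, beside 0.17 over all chromosome 10 genes for either mark and the shares above 0 given before (87.4% and 74.6% on chromosome 10, 52.1% and 50.8% of all genes). Of the chromatin and pluripotency regulators, 12 of 13 were above 0 for H3K4me3 (median 0.17) and 16 of 17 for H3K36me3 (median 0.17). Dnmt3l, the cofactor of the de novo DNA methyltransferases, had H3K36me3 of 1.53, 4.31, 1.16 and 8.10 RPKM. Smarcb1, a core subunit of the BAF remodelling complex, had 1.35, 4.55, 1.36 and 6.26. Tet1, which oxidises 5-methylcytosine, had 1.73, 3.78, 1.25 and 4.75. TTF4 was the highest line at all 3. Jmjd1c, a demethylase family member, was an exception for H3K4me3, with 4.24, 7.35, 8.48 and 4.64 and a deviation of -0.06 in TTF4.

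Of the cell cycle, growth and DNA damage genes, 21 of 23 were above 0 for H3K4me3 (median 0.14) and 11 of 20 for H3K36me3 (median 0.01). Prim1, the small primase subunit, had H3K4me3 of 3.37, 2.95, 6.32 and 6.33 RPKM, high in both TTF lines. The clock and replication fork protein Timeless had H3K36me3 of 1.54, 4.99, 1.67 and 9.19, with TTF4 highest. The mitotic kinase Cdk1 had 1.56, 4.45, 1.31 and 1.99, with TTF4 well under PTC12. Translation and energy genes had 22 of 24 above 0 for H3K4me3 (median 0.18) and 12 of 18 for H3K36me3 (median 0.18).

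Kidney development and tubule genes, the list closest to the PTC origin, had 12 of 14 above 0 for H3K4me3 (median 0.16) and 13 of 16 for H3K36me3 (median 0.15). Wif1, a secreted Wnt inhibitor, had H3K4me3 of 3.31, 3.70, 4.69 and 4.85 RPKM, and Bicc1, an RNA-binding protein whose loss gives cystic kidneys, had 3.98, 6.18, 6.40 and 3.19. TTF4 was highest at the first and lowest at the second. Fibroblast and matrix genes, the list closest to the TTF origin, had 5 of 7 above 0 for H3K4me3 (median 0.12) and 9 of 12 for H3K36me3 (median 0.20). The collagen gene Col6a1 had the lowest deviation of all listed genes for H3K36me3, at -1.62, with 1.64, 2.38, 1.99 and 0.286 RPKM. Lineage transcription factors had 12 of 13 (median 0.12) and 10 of 15 (median 0.05) above 0. Immune and blood genes had 6 of 7 (median 0.19) and 11 of 12 (median 0.34). The imprinted gene Plagl1, a zinc finger factor, had H3K4me3 of 2.53, 4.04, 3.56 and 4.26. No sensory receptor gene of the chromosome had a histone value in all 4 lines.

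A row holds a histone value only where the line had a peak at the gene, so the share of rows with a value shows peak presence. Of the 1842 chromosome 10 rows, H3K4me3 had a value at 721 (39.1%) in PTC11 and 929 (50.4%) in PTC12, and at 917 (49.8%) and 790 (42.9%) in TTF1 and TTF4. Over all rows of the table the shares were 34.4%, 45.4%, 44.2% and 34.9%. Chromosome 10 exceeded the other autosomes by 3.03, 2.97, 3.75 and 6.38 percentage points in the 4 lines. Among rows with a value in at least 1 other line, the excess was 6.40 in TTF4, 0.670 in PTC11, -0.935 in PTC12 and 0.546 in TTF1. That filter passes different rows for each line. Rows with a value in TTF4 alone are left out for TTF4 and count as absent for the other 3 lines. The lines are therefore not compared on it.

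In every line the share on chromosome 10 lay inside the range of the single autosomes, but the differences between lines did not. The H3K4me3 share of TTF4 minus the mean of the other 3 lines was -3.56 percentage points on chromosome 10 and from -8.27 to -4.68 on the other autosomes. Against PTC11 alone it was 3.75, beside at most 2.64 elsewhere, and against PTC12 alone it was -7.55, beside at most -7.73.

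For H3K36me3 a value was listed at 1322, 1046, 1074 and 972 rows, and over all rows of the table the shares were 68%, 52.5%, 53.4% and 46.3%. The excess over the other autosomes was 1.44, 2.38, 2.28 and 4.70 percentage points. TTF4 again had the largest excess. The H3K36me3 share of TTF4 minus the mean of the other 3 lines was -9.52 percentage points on chromosome 10, inside the -17.4 to -7.22 of the other autosomes. Its own share of rows with a value was still the lowest of the 4 lines for H3K36me3 on chromosome 10, as it was genome-wide.

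**Figure D4:**
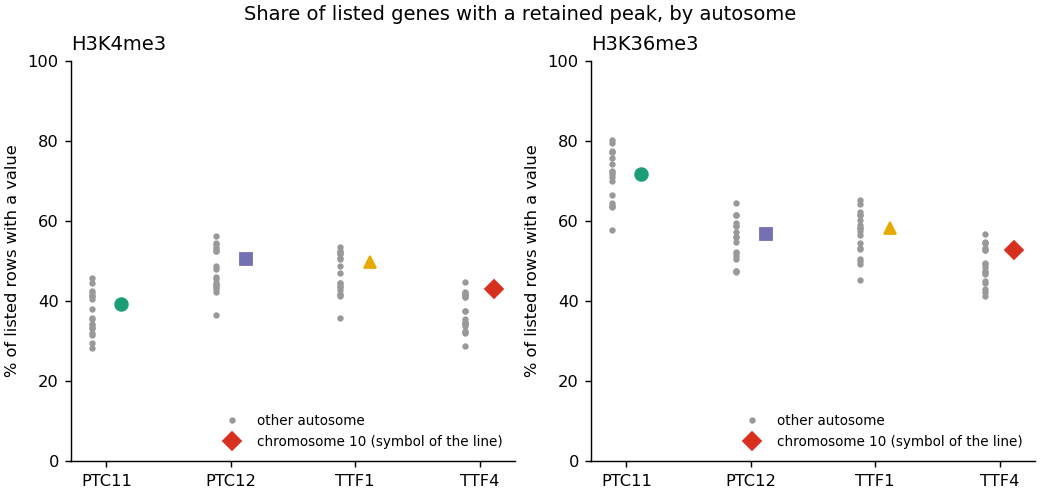
Share of listed rows with an H3K4me3 or H3K36me3 value in each line, in percent, with coloured symbols for chromosome 10 and grey points for the other autosomes. In TTF4 chromosome 10 exceeds the share over all other autosomes by 6.38 percentage points for H3K4me3 and 4.70 for H3K36me3, and it lies inside their range.

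An H3K4me3 value in TTF4 alone was found at 20 chromosome 10 rows (1.09%), beside 0.452% of all rows. The named genes of highest value in this group were Ano4 of the anoctamin membrane proteins (3.53 RPKM), Mettl7b (2.64), a U6 small nuclear RNA gene (2.59), the synaptic adhesion gene Lrrtm3 (2.32) and the CCN family gene Wisp3 (2.06). A value in every line but TTF4 was found at 30 rows (1.63%), beside 2.54% of all rows. Among them the NMDA receptor subunit gene Grin3b had 3.69, 4.70 and 5.54 RPKM in PTC11, PTC12 and TTF1, the glutathione transferase gene Gstt1 had 3.85, 3.16 and 4.2, and Gipc3 had 3.39, 5.21 and 4.68. The neuromedin B receptor gene Nmbr and the neighbouring B230364G03RIK shared 2.55, 3.78 and 4.63. These shares have no test, since each line is 1 library.

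For H3K36me3 a value in TTF4 alone stood at 5 rows (0.271%), beside 0.225% of all rows, with SNORA73 at 2.40 RPKM. A value in every line but TTF4 stood at 61 rows (3.31%), beside 4.81% of all rows. The ribosomal protein gene Rps15 had 3.43, 4.2 and 1.37 RPKM in the other 3 lines, the mitochondrial protein gene Chchd10 had 3.66, 3.78 and 0.577, and the ERK phosphatase gene Dusp6 had 2.80, 3.11 and 1.91. Cnpy2 had 2.39, 4.68 and 0.800, and Myct1 had 2.28, 3.05 and 2.34.

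H3K27me3 values were few. TTF4 had a value at 11 genes in all (0.025% of all rows) and 5 of them were on chromosome 10 (45.5%), which holds 4.19% of the rows. TTF1 had 52 (0.118% of all rows), 4 of them on chromosome 10 (7.69%). The 2 libraries of PTC origin, both named for PTC11, had 69 and 144 genes with a value, and 0 of either on chromosome 10. Vgll2 (2.58 RPKM), Anks1b (4.58) and Tcf21 (1.73) had a value in TTF4 and in no other library. The NK cell ligand genes Raet1e and H60b overlap and shared a value of 2.46 in TTF1 and 4.36 in TTF4. Onecut3, a homeobox factor (1.75), and Gm4895 (1.43) had a value in TTF1 alone. The promoters of Vgll2, Anks1b and Tcf21 shown above differ widely in CG, from 8 to 45. With 11 genes in TTF4, this share rests on few peaks, and it was noticed among values that include the chosen line, so it has no test.

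Over all its genes, chromosome 10 had a CpG methylation deviation near 0 in TTF4, while classes of genes went in opposite directions. Methylation values are fractions from 0 to 1, averaged over the start site, and 2535 chromosome 10 genes had one in all 4 lines. The median fraction was 0.408 in PTC11 and 0.566 in PTC12, against 0.380 in TTF1 and 0.788 in TTF4, and over 46331 genes of the other autosomes it was 0.378, 0.531, 0.369 and 0.767. TTF4 was the most methylated line on chromosome 10 as on the other autosomes, and PTC12 the second. After the mean of each line was subtracted, the deviation on chromosome 10 was -0.000751, 0.00258, -0.00167 and -0.000353. The SD between lines of the same origin was 0.00179, and TTF4 was less than 1 SD from 0. By class, the deviation of TTF4 was 0.0141 at genes with a median fraction under 0.2 and -0.00395 at genes with at least 0.5. At genes with H3K4me3 in all 4 lines it was 0.0132. At start sites of low methylation, the median deviation of TTF4 was thus higher on chromosome 10 than over the pooled other autosomes. No range over single autosomes was computed for these classes, so whether chromosome 10 stands out in them was not tested.

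Other autosomes of TTF4 ranged from -0.00707 to 0.00741, so chromosome 10 over all its genes lay well inside them. In 13 windows of 10 Mb along chromosome 10 the methylation deviation of TTF4 was between -0.0196 and 0.0207, inside the range of -0.0626 to 0.0431 of 240 windows elsewhere. After centring, TTF4 was the highest line at 25.2% of the chromosome 10 genes, beside 26% over all genes. The pairs of lines differed on chromosome 10 by -0.00519 to 0.00513 in all 6 cases.

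Start sites were counted below a low and above a high cutoff, and many lay between them. A fraction under 0.2 was found at 726, 598, 768 and 293 of the 2535 genes (28.6%, 23.6%, 30.3% and 11.6%) in PTC11, PTC12, TTF1 and TTF4. A fraction of at least 0.5 was found at 943, 1450, 929 and 1858 genes (37.2%, 57.2%, 36.6% and 73.3%). On the other autosomes 31.7%, 25.1%, 32.6% and 14.1% were under 0.2, so chromosome 10 had somewhat fewer start sites under 0.2 in every line.

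Methylation was lowest where H3K4me3 was present. At 549 genes with an H3K4me3 value in all 4 lines, the median fraction was 0.0752, 0.106, 0.0818 and 0.236 in PTC11, PTC12, TTF1 and TTF4. At 350 genes with no H3K4me3 value it was 0.503, 0.663, 0.496 and 0.822, and at 187 genes with a value in 1 to 3 lines it was 0.323, 0.490, 0.335 and 0.794. Within the last group, the 16 genes that lacked H3K4me3 in TTF4 alone had 0.278, 0.317, 0.196 and 0.809. The 11 genes with H3K4me3 in TTF4 alone had 0.361, 0.559, 0.392 and 0.734. TTF4 was the most methylated line in each of these groups.

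**Figure D5:**
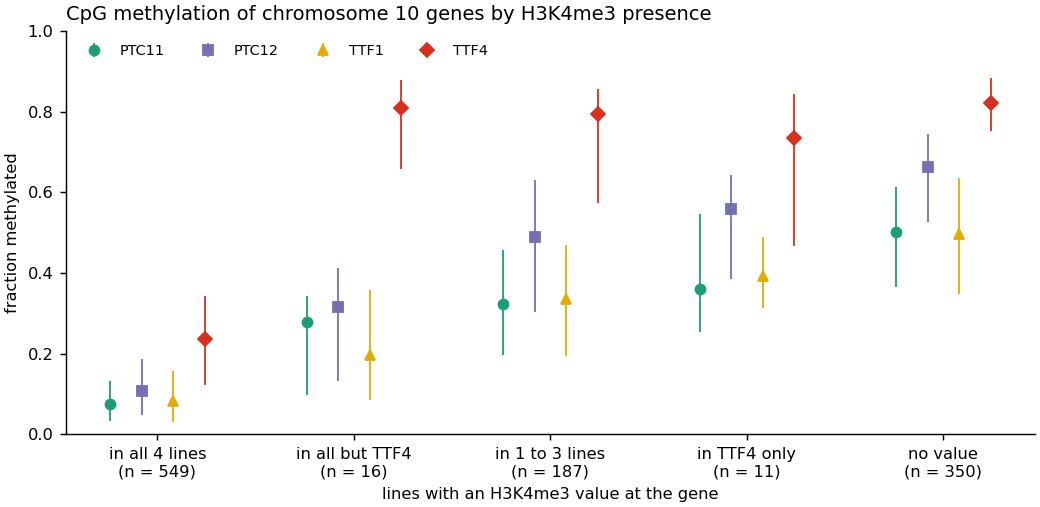
Median methylated fraction at the start site of chromosome 10 genes in each line, with genes grouped by the lines that have an H3K4me3 value and lines drawn from the lower to the upper quartile over genes. Genes in the groups for all but TTF4 and for TTF4 only are also part of the 1 to 3 lines group. Genes with H3K4me3 in all 4 lines have the lowest medians, from 0.0752 in PTC11 to 0.236 in TTF4.

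At single genes TTF4 could be far above the other lines. The long noncoding RNA gene Platr6 had fractions of 0.0797, 0.0622, 0.0746 and 0.911. Ccdc170 had 0.0643, 0.150, 0.0742 and 0.900, R3hdm4 had 0.111, 0.111, 0.0942 and 0.882, and the microRNA gene Mir677 had 0.119, 0.373, 0.0987 and 0.907. TTF4 was the single high line at Platr6, Ccdc170 and R3hdm4. Mir677 starts at 128085286, beside SNORD59 at 128085289, which had one of the highest H3K4me3 deviations in TTF4. The H3K4me3 value covers 2 kb before to 3 kb after a start site and the methylation value 1 kb around it. Whether the same stretch carries both was not tested. After centring each line on its mean, TTF4 was lowest against the median of the other lines at Grip1os3, with 0.282, 0.222, 0.270 and 0, at Olfr784, with 0.967, 0.698, 1 and 0.75, and at the olfactory receptor gene Olfr8, with 0.377, 0.556, 0.315 and 0.167. Olfr1352 had 0.667, 0.642, 0.252 and 0.354. Tcf21, one of the genes with H3K27me3 in TTF4, had 0.427, 0.533, 0.414 and 0.321, with TTF4 the lowest line. Its H3K4me3 values were 2.75, 4.36, 4.60 and 4.11 RPKM.

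Dusp6 was also among the 5 highest, with 0.00221, 0.0123, 0.0208 and 0.8, but its value in TTF4 was shared with its neighbours and may not be a measurement of that start site. In TTF4, 25 neighbouring genes from Gm48761 (start site 99039472) to Gm17870 (99988621), over 949 kb, all carried the same fraction of 0.8, Poc1b and Galnt4 among them. Such a run of at least 5 start sites with an identical fraction spanned at most 531 kb on the other autosomes of TTF4. PTC11 and PTC12 had 2 shorter runs each on chromosome 10, over 12 genes each in all, and TTF1 had 0. H3K4me3 in TTF4 was present at these genes, with 3.94, 6.46, 6.47 and 6.09 RPKM at Dusp6 and 4.07, 6.61, 6.78 and 6.50 at Poc1b. Without the runs the methylation deviation of TTF4 on chromosome 10 was -0.000373.

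Exact fractions of 0 or 1 were rare on chromosome 10 in TTF4. A fraction of exactly 1 was found at 20 of 2510 genes outside runs (0.797%), beside 3.28% on the other autosomes, where single autosomes ranged from 1.73% to 5.13%. Chromosome 10 had the lowest share of the 19 autosomes in TTF4. A fraction of exactly 0 was found at 3 genes (0.120%), beside 0.488%, and 1 other autosome had a lower share. In PTC11, PTC12 and TTF1 the shares at exactly 1 were 0.237%, 1.14% and 0.316% on chromosome 10, beside 0.387%, 1.25% and 0.669% elsewhere. Their shares at exactly 0 were 0.829%, 0.474% and 1.26%, beside 1.24%, 0.987% and 2.02%. The low share at 0 was thus not particular to TTF4, and PTC12 and TTF1 also had 1 autosome with a lower share. The number of reads behind a fraction is not given in the table, so how depth moves with these shares was not tested.

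Start sites that were under 0.2 in the other 3 lines and at least 0.5 in TTF4 numbered 37 of 514 on chromosome 10 (7.20%), beside 5.05% over all genes. Leaving out runs, they were 32 of 509 (6.29%), beside 4.86% on the other autosomes, whose single shares with runs ranged from 2.13% to 10.6%. The same count was 1 gene for PTC11 and 0 for PTC12 and TTF1. Gpx4 had fractions of 0.188, 0.135, 0.0881 and 0.805. The vasopressin receptor gene Avpr1a had 0.136, 0.169, 0.157 and 0.886, and the deacetylase gene Sirt6 had 0.0365, 0.163, 0.133 and 0.576. Each was low in 3 lines and high in TTF4.

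Of these genes outside the run, 20 were also in the histone table, and 11 of them had an H3K4me3 value in PTC11, PTC12 and TTF1. In TTF4, 3 of the 11 had none, namely Ccdc170, Gpx4 and Gm867. Among 390 genes under 0.2 in the other 3 lines that stayed under 0.5 in TTF4, 376 had H3K4me3 in the other 3 lines and 1 lacked it in TTF4. These counts are of chromosome 10 only. They were not made on the other autosomes, so nothing particular to chromosome 10 is read from them. Ccdc170 had H3K4me3 of 3.28, 3.09 and 4.30 RPKM in the other 3 lines, and Gpx4 had 3.55, 3.00 and 3.72. The gene body of Gpx4 kept H3K36me3 in TTF4, with 2.01, 5.44, 1.31 and 7.18 RPKM, as did that of Ccdc170, with 1.36, 3.93, 1.52 and 4.59. The promoter windows at the listed start sites of Gpx4 and Ccdc170 hold few CG, 3 and 8. Other start sites within these genes were not examined.

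Among the listed genes, methylation was low at housekeeping start sites and high at receptor genes. The median fraction of the cell cycle list was 0.0281, 0.0514, 0.0320 and 0.101 in PTC11, PTC12, TTF1 and TTF4. That of 87 sensory receptor genes was 0.5, 0.628, 0.415 and 0.801. The basement membrane gene Lama4 had 0.292, 0.223, 0.238 and 0.920, and the thymic regulator Aire had 0.193, 0.298, 0.154 and 0.873. Plagl1 had 0.402, 0.409, 0.184 and 0.880, and Tet1 had 0.458, 0.779, 0.310 and 0.982. TTF4 was the most methylated line at each of these 4 genes, and its mean fraction over all genes was also the highest, at 0.649. After centring, its deviation was above 0 at 3 of 18 chromatin and pluripotency genes, 1 of 24 cell cycle and 3 of 25 translation genes. It was above 0 at 6 of 20 kidney, 3 of 19 lineage, 7 of 16 fibroblast, 14 of 20 immune, 2 of 2 imprinted and 47 of 87 receptor genes. Over all chromosome 10 genes the share was 49.6%, beside 50.0% on the other autosomes.

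The comparison the study was built for, TTF against PTC lines, called no chromosome 10 gene. It was fitted with limma on all genes and adjusted by Benjamini-Hochberg, and TTF4 is 1 of the 2 TTF lines. For the histone marks the fit therefore uses the values that chose the chromosome, and a raise in 1 line of a pair widens the spread of that pair, so nothing is read from their counts on chromosome 10. For H3K4me3, 0 of 685 chromosome 10 genes passed an adjusted p of 0.05, beside 0.481% of all 13709 genes. For H3K36me3 it was 0 of 837, beside 0.112%, and for methylation 0 of 2535, beside 0.00395%. Over all genes, these histone calls were 66 for H3K4me3 and 19 for H3K36me3. Both fell to 0 at a mean of at least 1 RPKM, and to 0 without the variance trend. The histone shares over all genes therefore hang on the filter and on the trend. At an unadjusted p under 0.05 there were 2, 3 and 101 chromosome 10 genes, beside 0.977%, 0.681% and 4.72% of all genes. The smallest adjusted p by limma was at SNORD59 for H3K4me3, where TTF exceeded PTC by 1.07 ± 0.38 (SE, log2) with 0.726. For H3K36me3 it was 0.950, at RP24-547D11.6, with 0.117, 0.339, 0 and 0 RPKM. For methylation it was 0.352, at Gm7672, with fractions of 0.836, 0.886, 0.0879 and 0.665.

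The median difference of TTF minus PTC on chromosome 10 was 0.19 for H3K4me3, beside 0.04 over all genes, and -0.04 for H3K36me3, beside -0.14. For methylation it was -0.0133, beside -0.0100. The differences of the histone marks carry the raise of TTF4, which TTF1 did not share. With 1 line left out, the median H3K4me3 difference on chromosome 10 was -0.03 without PTC11, 0.39 without PTC12, 0.06 without TTF1 and 0.31 without TTF4. Over all genes it was -0.16, 0.26, -0.21 and 0.29 in that order. For methylation it was -0.0129 without TTF1 and 0.0129 without TTF4, beside -0.0102 and 0.0159 over all genes. In each of these fits a lone line is assumed to vary like the pair of the other origin, so their calls are not given.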

How the data were processed

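Members and gene lists were chosen with earlier results of these data known. For the ChIP-seq the authors aligned reads with Bowtie2 2.1.0 to mm10, called peaks with MACS2 2.0.10 and summarised genes with bedtools 2.17.0. The deposited histone values are RPKM with input RPKM subtracted, near the start site (2 kb before to 3 kb after) or over the gene body, and a gene without a peak has none. The deposited methylation values are fractions, called by the authors with Nanopolish on reads aligned with minimap2 2.17-r941 and averaged within 1 kb of the start site, with no coverage given. All 16 libraries were read, 1 per line for H3K4me3, H3K36me3 and methylation and, for H3K27me3, 2 named for PTC11 and 1 per TTF line, so p-values measure only the spread between these lines. Deviations used log2(RPKM + 1), and fractions were centred on the mean of the line. TTF and PTC were compared with limma 3.58.1 in R 4.3.3, tested on simulated data, with a variance trend and Benjamini-Hochberg adjustment over all genes. Named genes were members of the lists, the 5 highest and 5 lowest deviations of TTF4 per assay (symbols other than Gm, Rik, XLOC or pseudogene names, at a median of at least 2 RPKM), the 5 highest of those with a value in TTF4 alone or in every line but TTF4, and all H3K27me3 genes. Others (among them Avpr1a, Sirt6, Gm867 and Poc1b) were named after their values were seen. Alternatives were other pseudocounts, filters, normalizations and left-out lines.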

Additional observations from a re-analysis of the deposited data

How the results depend on the processing

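The deviation of TTF4 on chromosome 10 kept its sign under every pseudocount, filter, normalization and reference tried, at 0.17 to 0.29 for H3K4me3 and 0.10 to 0.20 for H3K36me3. With 1 other line left out, the median of 3 lines gave 0 to 0.27 for H3K4me3, with 0 without PTC12 or TTF1, since TTF4 was then the middle line at most genes. Against the mean of the remaining lines, an alternative chosen after seeing the data, it was 0.28 in each case. For H3K36me3 the median of 3 lines gave 0.18 to 0.19 and the mean 0.18 to 0.22, and leaving out TTF4 gives no deviation of TTF4. The excess of H3K4me3 values in TTF4 was 8.11 percentage points with Ensembl IDs only and 8.30 against all other chromosomes, and that of H3K36me3 was 6.71 against all other chromosomes. Among rows with a value in at least 1 other line, which differ from line to line, the H3K4me3 excess of PTC12 was -0.935.

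The methylation deviation of TTF4 changed with the setting, and in sign at genes of low methylation or with H3K4me3: -0.00329 with fractions as deposited, -0.00395 at genes with a median of at least 0.5, 0.0141 under 0.2, -0.00457 with quantile normalization, 0.0132 at genes with H3K4me3 in all 4 lines, -0.00247 against the mean of the other 3 lines (-0.00285 without TTF1 as well) and -0.00363 centred within 20 bins of level. The other lines turned in sign too. PTC12 had -0.000335 under 0.2, -0.00149 at genes with H3K4me3 and -0.000731 within bins, PTC11 had 0.00314 at 0.5 or more, 0.00238 with quantile normalization and 0.00142 within bins, and TTF1 had 0.00131 with quantile normalization. Why these values move was not tested. Coverage per gene is not given, so the depth behind them is unknown.

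TTF against PTC by limma called 0 to 5 chromosome 10 genes for H3K4me3, 0 to 1 for H3K36me3 and 0 to 34 for methylation with 1 line left out, and 1 for H3K36me3 at a pseudocount of 0.1. The labels share no numbers across origins. With a replicate block of PTC11 with TTF1 and PTC12 with TTF4, lines the study calls alike in H3K36me3, there were 0 calls for H3K4me3, 5 for H3K36me3 (of 837, beside 0.980% of all genes) and 0 for methylation. The crossed pairing, added after seeing the data, gave 0 for each. The deviations of PTC11 and TTF1 from their group means correlated at -0.419, 0.470 and 0.115 over genes of the 3 assays.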
